A study of Saccharomyces cerevisiae with 13 samples.

Results

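The histone genes of budding yeast were followed on newly replicated chromatin in an rtt109 deletion strain. The 10 genes were chosen by systematic name from 6326 genes in the files: the H2A genes HTA1 (YDR225W) and HTA2 (YBL003C), the H2B genes HTB1 (YDR224C) and HTB2 (YBL002W), the H3 genes HHT1 (YBR010W) and HHT2 (YNL031C), the H4 genes HHF1 (YBR009C) and HHF2 (YNL030W), the gene of the H2A variant H2A.Z, HTZ1 (YOL012C), and the linker histone gene HHO1 (YPL127C). The first 8 are called core histone genes here, and all 10 had values in every library.

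Core histones are needed in bulk while DNA is copied, and their genes lie in divergent pairs, each pair reading outwards from a shared promoter: HTA1-HTB1, HTA2-HTB2, HHT1-HHF1 and HHT2-HHF2. They are transcribed around the onset of S phase. The activators Spt10 and SBF act on them, and the HIR complex represses them outside S phase except at HTA2-HTB2. HTZ1 and HHO1 have promoters of their own and code for proteins that replace H2A in promoter nucleosomes and bind linker DNA.

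Asynchronous cells, fixed in formaldehyde, carried a human nucleoside transporter (hENT1) and a viral thymidine kinase so that they take up EdU, a thymidine analogue that can be biotinylated. They were given EdU for 5 min and thymidine for 5 min, and chromatin cut with micrococcal nuclease (MNase), which spares DNA on nucleosomes, was taken 0, 2, 4, 6, 8 and 15 min later in replicate 1 and 2, 4, 6, 8, 15 and 25 min later in replicate 2. Nascent DNA pulled down through its EdU gave these 12 libraries, and 1 library of bulk chromatin had no pull-down. Late libraries (8 and 15 min, n = 4) were set against early libraries (2 and 4 min, n = 4), and these 8 nascent libraries against bulk. Every group carried the same strain background, and no strain with RTT109 intact was compared. RTT109 codes for the acetyltransferase of histone H3 lysine 56, a mark of newly made H3. The titles of the nascent libraries speak of input DNA, whereas their descriptions say nascent chromatin, which is followed here. The titles name an rtt109 deletion, whereas the source label names a chd1 deletion. The signal over RTT109 was 0.0230 to 0.0675 in replicate 1 and 0.0632 in bulk, while CHD1 had 0.788 to 1.15 in nascent libraries and 1.06 in bulk. RTT109 gave no check in replicate 2, where its chromosome is listed at 0 throughout.

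A signal of 1 is the mean of a library, so a value says how much nucleosome-protected DNA lay there relative to the rest of the genome in that library. A lower share of nascent DNA from a place and a lower share of it protected cannot be told apart. Depth was estimated by taking the smallest step of the signal as 1 read. It was 2.57 to 24.6 reads per average bin of 20 bp in replicate 1, 39.2 to 78.1 in replicate 2 and 58.6 in bulk. The shallowest libraries were 0 min (2.57) and 4 min (4.94) of replicate 1. The 25 min library stood apart. Its ratio of promoter to body signal had a median of 1.05 over the genes tested, against 0.525 to 0.606 in the 8 compared nascent libraries and 0.565 in bulk, and it entered neither of the main comparisons.

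The 4 shared promoters have a sequence feature in common. The histone upstream activating sequence, the element that Spt10 binds, was searched on both strands in the 500 bases before each coding start of the R64 reference genome (RefSeq). It was found at 8 of the 8 core histone genes and at neither HTZ1 nor HHO1, and at 63 of 6006 genes in all (1.05%). The element is by its name one of histone gene promoters, so its presence at the core genes is a description and no test. Since the partners read from the same stretch, the 8 genes hold 5 matches. Only full matches to 1 pattern of 16 bases, with a spacer of 6, were counted, and looser copies were not searched. The stretches around the matches are shown because the signal upstream of HHT2 and HHF2 changed over time. They run 5′ to 3′ on the plus strand, with the matches in capitals.
HTA1-HTB1, chr4:915073-915192: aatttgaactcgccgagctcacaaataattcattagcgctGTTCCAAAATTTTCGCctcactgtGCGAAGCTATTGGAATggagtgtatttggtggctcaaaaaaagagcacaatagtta
HTA2-HTB2, chr2:236068-236163: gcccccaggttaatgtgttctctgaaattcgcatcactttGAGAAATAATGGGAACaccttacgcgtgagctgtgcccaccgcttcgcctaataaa
HHT1-HHF1, chr2:255904-255999: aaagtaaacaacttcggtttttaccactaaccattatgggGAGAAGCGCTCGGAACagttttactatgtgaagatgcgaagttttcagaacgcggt
HHT2-HHF2, chr14:576306-576401: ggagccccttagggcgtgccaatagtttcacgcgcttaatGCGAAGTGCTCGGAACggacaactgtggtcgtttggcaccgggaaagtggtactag
The coding starts are 817 bases apart at HTA1-HTB1, 699 at HTA2-HTB2, 646 at HHT1-HHF1 and 676 at HHT2-HHF2. HTA1-HTB1 held 2 matches, and each of the other 3 promoters held 1. A match is a run of letters and no measure of binding.

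Taken as the mean of the 8 genes, nucleosomal signal over the core histone gene bodies was higher at each later time after replication. The mean body signal (0 to 1000 bp from the listed transcription start, or as far as the row reaches) of the 8 genes was 0.407, 0.475, 0.505, 0.564, 0.631 and 0.828 at 0, 2, 4, 6, 8 and 15 min in replicate 1. The second time course gave 0.513, 0.587, 0.641, 0.774, 0.904 and 1.02 at 2, 4, 6, 8, 15 and 25 min. Every mean was above the one before it in both time courses. The median of the 8 genes, however, fell from 0.609 to 0.537 between 4 and 6 min of replicate 1. Single genes did not all follow the mean either. From 2 to 4 min of replicate 1, HTA1 fell from 0.419 to 0.263 and HHT2 from 0.330 to 0.247. From 8 to 15 min of replicate 2, HHF1 fell from 0.538 to 0.284. From 15 to 25 min of replicate 2, HHT2 fell from 0.781 to 0.457 and HHF2 from 0.939 to 0.543. HTA1 and HTB1 fell as well, while HTA2, HTB2, HHT1 and HHF1 rose. The late mean was 0.784 ± 0.115 and the early mean 0.520 ± 0.0477 (SD, n = 4 each), with no overlap, and bulk had 0.885. The median of the genes tested was 1.02 to 1.06 in replicate 1. In replicate 2 it was 1.17 to 1.21 at 2 to 15 min and 1.07 at 25 min, and in bulk 1.16. HTZ1 and HHO1 together had 0.884 ± 0.135 late and 0.953 ± 0.0977 early (SD, n = 4 each), and the groups overlapped.

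**Figure D1:**
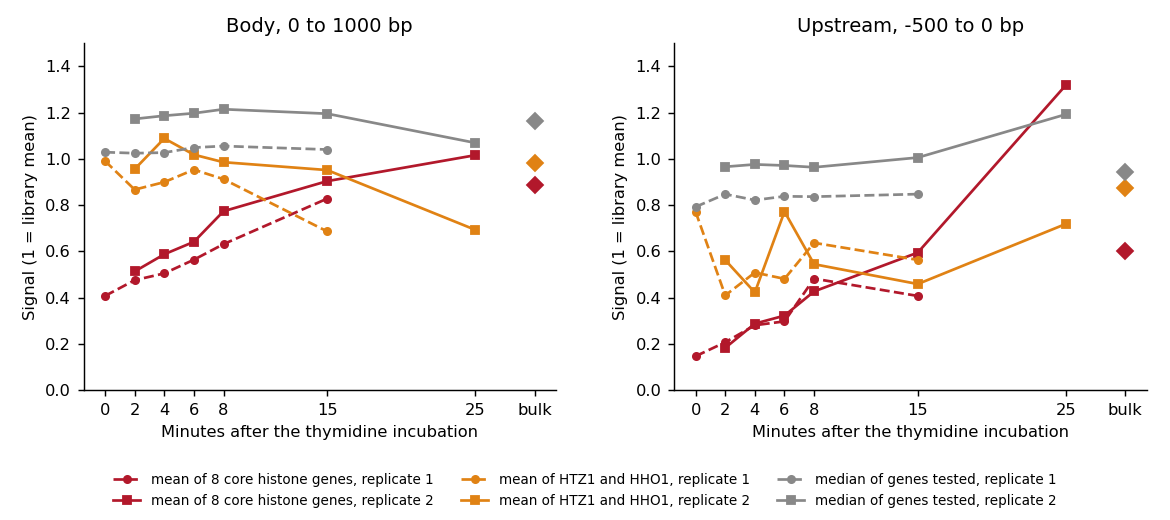
Mean signal of the 8 core histone genes (red) and of HTZ1 and HHO1 (orange) and the median of the genes tested (grey) by minutes after the thymidine incubation, for the body (left) and the upstream 500 bp (right); circles are replicate 1, squares replicate 2 and diamonds the bulk library. The body signal of the core genes climbs from 0.407 at 0 min to 0.828 at 15 min in replicate 1, whereas the grey lines of that panel stay between 1.02 and 1.21.

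Of the 10 genes, HTA1 passed the test of late against early body signal (limma on log2(signal + 0.1), adjusted over 5678 genes), as did 85 genes (1.5%) in the same direction and 10 (0.176%) in the other. The median change was 0.41 on the log2 scale over the 8 core genes, where 8 of 8 were positive, and 0.01 over all genes tested, where 2924 were positive. The 8 genes lie in 4 divergent pairs, so they are not 8 separate places. HHF1 turned to -0.21 and HHF2 to -0.033 under another setting. HTA1, HTB1 and HTB2 had every late library above every early library, as did 404 of the genes tested (7.12%). The HTB2 window begins in its promoter, so its value is not of the coding region alone. Values below are given in the order 8 and 15 min of replicate 1, then 8 and 15 min of replicate 2, and for early libraries 2 and 4 min of replicate 1, then 2 and 4 min of replicate 2.

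HTA1, which codes for H2A, had body signals of 0.814, 1.09, 1.12 and 1.19 in late libraries, against 0.419, 0.263, 0.484 and 0.716 in early libraries and 1.07 in bulk. The late values were all above the early ones, and the lowest early value came from the shallow 4 min library. On the log2(signal + 0.1) scale the change was 1.07 (SE 0.20, adjusted p = 0.0175). Ranked within each library among the genes tested, HTA1 stood on average at percentile 41.2 late, at 5.05 early and at 35.4 in bulk. Its call was lost without 2 min of replicate 1 (adjusted p = 0.0912), 15 min of replicate 1 (0.0585), 15 min of replicate 2 (0.0659) or 8 min of replicate 2 (0.0589), without all of replicate 1 (0.0942) or replicate 2 (0.118), over 0 to 400 bp (0.0534) and over the F strand alone (log2 change 0.68, adjusted p = 0.252), while the change itself was 0.87 to 1.27 with any library or replicate left out.

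HTB1, its divergent partner and an H2B gene, had 0.774, 1.21, 1.08 and 1.41 in late libraries, against 0.724, 0.679, 0.617 and 0.642 in early libraries and 1.07 in bulk. The late values lay above the early ones, the 8 min library of replicate 1 by the least. The change of 0.65 (SE 0.16) missed the threshold (adjusted p = 0.0513) and passed it with the replicate number as a block (adjusted p = 0.0397). The pair reached or passed its bulk level by 15 min in both replicates.

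HTA2 and HTB2, the other H2A and H2B genes, had changes of 0.38 and 0.43 that did not pass. HTA2 had 0.656, 0.841, 0.732 and 1.09 in late libraries, against 0.512, 0.793, 0.483 and 0.678 in early libraries and 1.12 in bulk, with overlap (log2 change 0.38, SE 0.17, adjusted p = 0.266). With 15 min set against 2 min alone, HTA2 passed with a change of 0.83 (adjusted p = 0.0161). HTB2 had 0.605, 0.832, 0.684 and 0.865 in late libraries, against 0.455, 0.545, 0.526 and 0.568 in early libraries and 0.802 in bulk. Its groups did not overlap, yet the change of 0.43 (SE 0.14) did not pass (adjusted p = 0.121). In the file the start of HTB2 lies far upstream of its coding region: the row outruns the coding length by 684 bp, against 168 to 363 bp for the other core genes and HHO1, so its first 400 bp are promoter. HTZ1 has the same limit (655 bp). For HTB2 the mean late and early signals were 0.584 and 0.0896 at 210 bp, in the promoter stretch. They were 1.35 and 1.42 at 470 bp, 1.19 and 1.09 at 690 bp, and 0.870 and 0.224 at 870 bp. Where in the window the change of HTB2 lies was not tested.

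**Figure D2:**
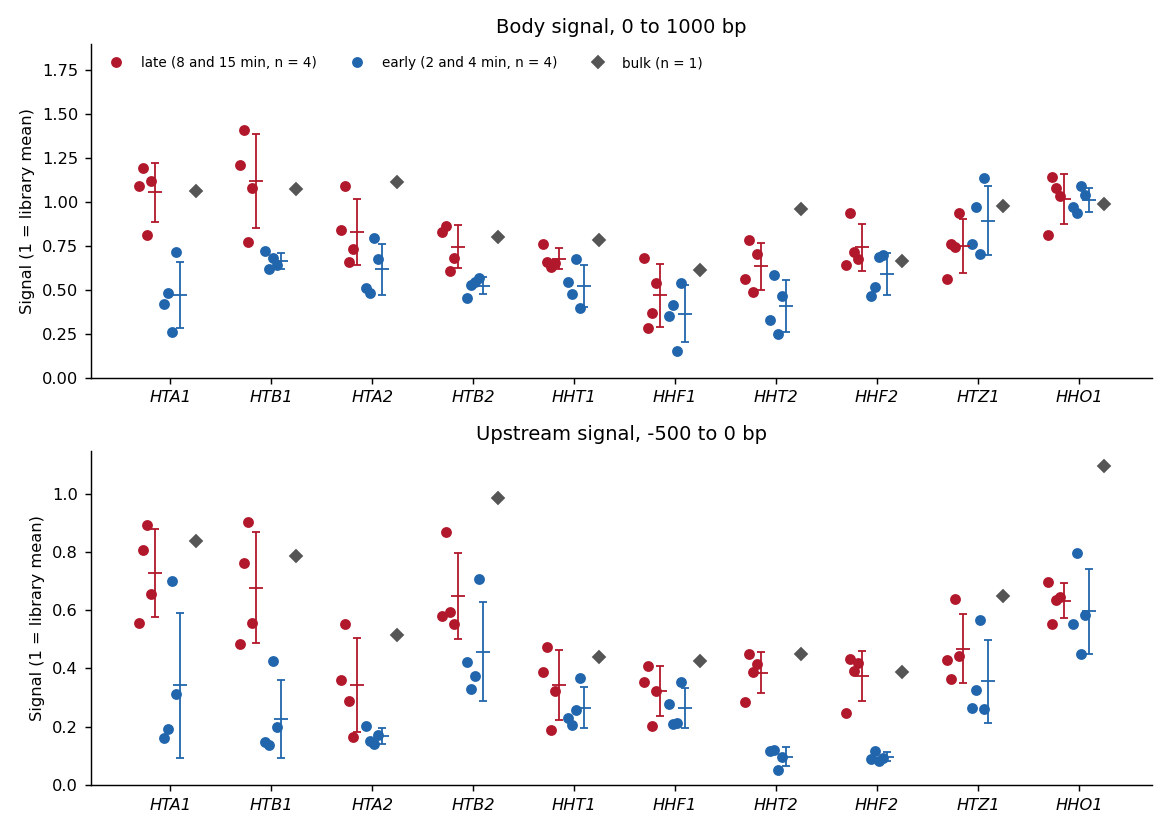
Body signal (top) and upstream signal (bottom) of each histone gene in every late (red), early (blue) and bulk (grey diamond) library; bars are the mean and SD of the 4 libraries beside them. The HTA1, HTB1 and HTB2 bodies and the HTB1, HHT2 and HHF2 upstream stretches have all late points above all early points. The HTB2 body window begins in its promoter.

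Among the H3 and H4 genes no body change passed without the block. HHT2 had 0.488, 0.563, 0.703 and 0.781 in late libraries, against 0.330, 0.247, 0.584 and 0.463 in early libraries and 0.962 in bulk. Its groups overlapped between replicates but not within either of them, and the change of 0.56 (SE 0.20) had an adjusted p of 0.136, which passed with the replicate block (adjusted p = 0.0326). HHT1 had 0.631, 0.763, 0.650 and 0.661 late and 0.546, 0.674, 0.478 and 0.395 early (log2 change 0.33, SE 0.15, adjusted p = 0.257). HHF2 had 0.714, 0.643, 0.676 and 0.939 late and 0.463, 0.686, 0.516 and 0.701 early (log2 change 0.29, SE 0.16, adjusted p = 0.347). HHF1 was the lowest of the 10 on average, with 0.368, 0.684, 0.538 and 0.284 late, 0.353, 0.150, 0.416 and 0.536 early and 0.615 in bulk. Its change of 0.32 (SE 0.26, adjusted p = 0.554) turned to -0.21 without replicate 1, so no direction is given for it.

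HTZ1 had 0.743, 0.560, 0.937 and 0.760 in late libraries, against 0.762, 0.706, 0.971 and 1.14 in early libraries and 0.980 in bulk (log2 change -0.22, SE 0.17, adjusted p = 0.537). HHO1 had 1.08, 0.812, 1.03 and 1.14 late, 0.972, 1.09, 0.940 and 1.04 early and 0.987 in bulk (log2 change 0.00, SE 0.14, adjusted p = 1.00). Late and early libraries overlapped for both, and in early libraries both genes were above the 0.520 that the core genes averaged.

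**Figure D3:**
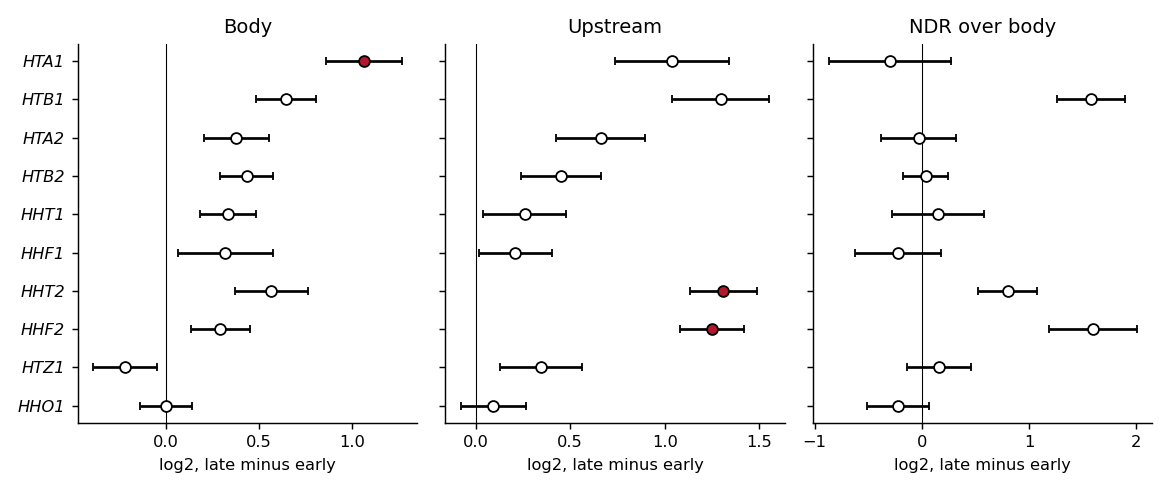
Log2 difference, late minus early, with its SE, for the body, the upstream 500 bp and the ratio of promoter to body signal; filled points passed limma's adjusted p of 0.05 and open points did not. HTA1 is filled in the body panel, HHT2 and HHF2 in the upstream panel, and none in the ratio panel.

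Upstream of the genes the promoter shared by HHT2 and HHF2 gained signal. This measure, the mean signal from -500 to 0 bp, was added after the values had been seen. Over the 8 core genes it averaged 0.477 ± 0.0842 late and 0.239 ± 0.0525 early (SD, n = 4 each) and 0.603 in bulk, while the median of the genes tested was 0.822 to 1.01 in these libraries. HHT2 and HHF2, which share a promoter, rose and were 2 of the 9 genes (0.159% of 5671) that passed in this direction. None passed in the other, and 824 had an unadjusted p under 0.05, 516 of them higher late. The median log2 change was 0.85 over the 8 core genes, against 0.41 for their bodies, and 0.00 over all genes tested. The difference between the measures was not tested. HTB1, HHT2 and HHF2 had every late library above every early library, as did 274 genes (4.83%).

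Upstream of HHT2 the signal was 0.389, 0.286, 0.415 and 0.450 in late libraries, against 0.118, 0.0499, 0.119 and 0.0975 in early libraries and 0.451 in bulk. The early libraries held hardly any protected fragments there, and the late ones were close to or somewhat below bulk. The change was 1.31 on the log2 scale (SE 0.18, adjusted p = 0.00736), the 5th smallest p of 5671. Upstream of HHF2 the values were 0.392, 0.246, 0.419 and 0.433 late, 0.0892, 0.0832, 0.118 and 0.0941 early and 0.389 in bulk (log2 change 1.25, SE 0.17, adjusted p = 0.00736). These are 2 readings of mostly the same DNA, since the starts lie about 550 bp apart by the overlap of their rows. With a pseudocount of 1 the adjusted p was 0.0978 for both, and without 8 min of replicate 2 it was 0.0509.

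At the HTA1-HTB1 promoter the late values upstream of HTB1 were 0.902, 0.485, 0.558 and 0.762, against 0.149, 0.424, 0.136 and 0.197 in early libraries and 0.787 in bulk (log2 change 1.30, SE 0.26, adjusted p = 0.0836). Upstream of HTA1 they were 0.894, 0.558, 0.656 and 0.806 late, 0.163, 0.701, 0.192 and 0.312 early and 0.837 in bulk (log2 change 1.04, SE 0.30, adjusted p = 0.189). The high early value in both came from the shallow 4 min library of replicate 1, without which both passed (adjusted p = 0.00669 for HTB1 and 0.0143 for HTA1). The other core genes did not pass. Upstream of HTA2 the signal was 0.289, 0.360, 0.166 and 0.553 late, 0.204, 0.142, 0.150 and 0.170 early and 0.515 in bulk (log2 change 0.66, SE 0.24, adjusted p = 0.226). Upstream of HTB2 it was 0.595, 0.580, 0.554 and 0.870 late, 0.423, 0.374, 0.330 and 0.706 early and 0.985 in bulk (log2 change 0.45, SE 0.21, adjusted p = 0.354). For this pair the upstream windows run into the partner's row, as the starts are 330 bp apart as listed and about 220 bp apart by the overlap of the rows. The other pairs were also closer by overlap than as listed: 610 and 720 bp at HTA1-HTB1, 580 and 690 bp at HHT1-HHF1, 550 and 660 bp at HHT2-HHF2. Distances from the listed starts are therefore approximate. At the HHT1-HHF1 promoter the groups overlapped. Upstream of HHT1 the signal was 0.190, 0.388, 0.323 and 0.475 late, 0.230, 0.256, 0.206 and 0.366 early and 0.438 in bulk (log2 change 0.26, adjusted p = 0.608), and HHF1 had a change of 0.21 (adjusted p = 0.646). HTZ1 and HHO1 had upstream changes of 0.35 and 0.09 (adjusted p = 0.490 and 0.843).

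Along the genes, bulk chromatin had its highest bin in the first 300 bp after the listed start at 130 bp in HHO1, with a signal of 2.34, and the highest bin there was 1.63 late and 1.35 early. In HTZ1 the highest bin was 2.37 at 150 bp in bulk, 1.20 late and 1.49 early. By the length of the row this bin lies before the coding region, and at 290 bp the bulk signal was 0.10 before it climbed again. At the core genes the highest bulk bin in the first 300 bp was 1.79 at HTA1, 1.94 at HTA2, 1.67 at HTB1, 1.66 at HHT2, 1.47 at HHT1, 1.18 at HHF1 and 1.12 at HHF2. At HTB2, where this stretch is promoter, it was 0.580. For HTB1 the late peak of 1.80 was at or above bulk and the early one was 1.10. For HTA2 neither came near bulk, with 1.11 late and 0.898 early. The correlation of a profile with its bulk profile is a description that also carries depth. Its median was 0.70 late and 0.63 early for HTA1, and 0.37 late and 0.74 early for HHF2, whose late signal lay nearer the end of the gene.

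**Figure D4:**
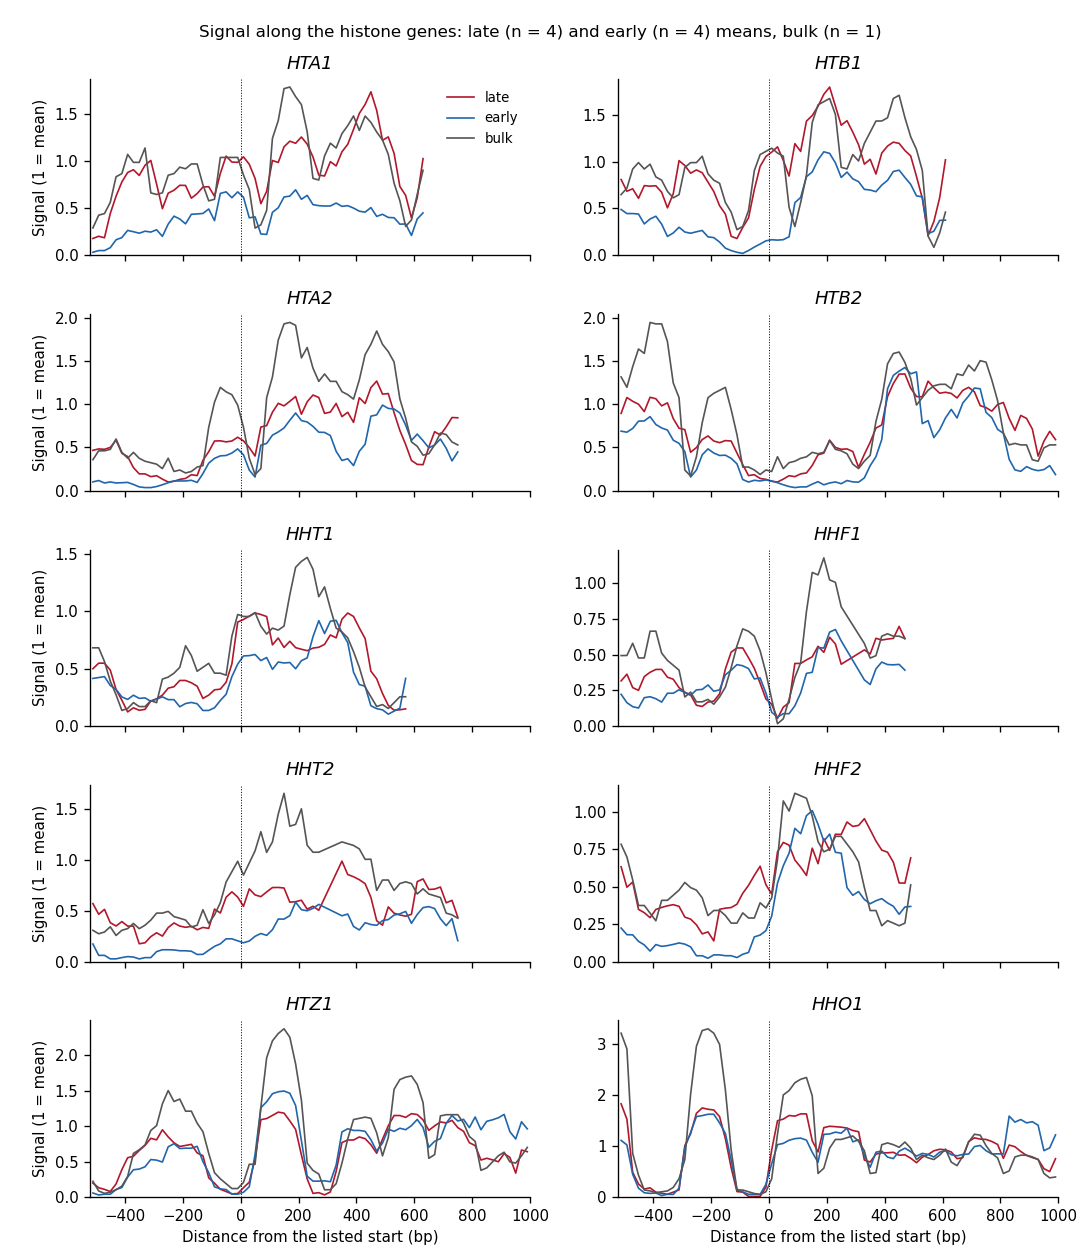
Mean signal per 20 bp bin by distance from the listed start for each histone gene, late (red, n = 4), early (blue, n = 4) and bulk (grey, n = 1); lines end where the file's rows end. The early line is lowest upstream of HHT2 and HHF2, where no bin passes 0.224, and HTB2 rises only beyond about 400 bp, its listed start being far from its coding region.

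The share of signal in the nucleosome-depleted region (NDR, -150 to 0 bp) was next taken as a ratio to the body signal. No histone gene passed late against early, where 3 of 5663 genes (0.053%) were higher late and none lower (466 at an unadjusted p under 0.05). HTB1 and HHF2 had every late library above every early one, as did 122 genes (2.15%). For HTB1 the ratio was 0.663, 0.479, 0.408 and 0.444 late, 0.156, 0.00, 0.160 and 0.131 early and 0.613 in bulk (log2 change 1.58, SE 0.32, adjusted p = 0.231). For HHF2 it was 0.698, 0.335, 0.781 and 0.767 late, 0.00, 0.260, 0.238 and 0.161 early and 0.468 in bulk (log2 change 1.60, SE 0.41, adjusted p = 0.392). For HHT2 it was 0.883, 0.920, 0.697 and 0.801 late, 0.538, 0.721, 0.327 and 0.250 early and 0.680 in bulk, with overlap at the shallow 4 min library (log2 change 0.80, SE 0.27, adjusted p = 0.511). HTA1 held a narrow range late, 0.776 to 0.839, beside its bulk ratio of 0.817, while its early ratios were 0.418, 4.64, 0.656 and 0.744, the 4.64 again from that library. The other 7 genes lay between -0.30 and 0.16, and all 7 changed sign under some other setting.

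Against bulk, the nascent chromatin of the core genes was low, though no gene differed by more than 1 on the log2 scale in body signal, as 30 of 5678 genes (0.528%) did. With a single bulk library there is no test. The median difference, nascent minus bulk, was -0.45 over the 8 core genes, -0.11 over HTZ1 and HHO1 and -0.07 over all genes. HHT2 had the most negative value (-0.83, nascent SD 0.45, n = 8), lower than in all but 1.27% of genes. HTA2 (-0.60), HHT1 (-0.36) and HHT2 were below bulk in 8 of 8 nascent libraries, as were 1052 of the genes tested (18.5%), whereas HHF2 (-0.01) and HHO1 (0.03) lay at the bulk level. Upstream, all 10 genes were lower in nascent chromatin, from -0.44 at HHF1 to -0.88 at HTA2, with a median of -0.75 for the core genes, -0.68 for HTZ1 and HHO1 and -0.09 for all genes. None passed -1, as 66 genes did (1.16%). Upstream of HHO1 the signal was 0.636, 0.698, 0.644 and 0.553 in late libraries and 0.554, 0.450, 0.797 and 0.582 in early libraries, against 1.09 in bulk. For the ratio, HTB1 alone was lower by over 1 (-1.06), as were 105 genes (1.85%), and none was higher by over 1, as 92 were (1.62%).

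Genes beside some of the histone loci had body changes in the same direction. The 2 nearest tested genes on each side were taken by position. Around HTA1-HTB1 the 4 neighbours, YDR222W, CRF1, ADK1 and SIR4, had log2 changes of 0.41 to 0.54, against 0.65 and 1.07 for the pair. Around HTA2-HTB2, ECM15 rose by 0.97 (SE 0.16, adjusted p = 0.00648), more than the 0.38 and 0.43 of the pair, while UTP20 had -0.20. Around HHT1-HHF1 the neighbours had 0.27 to 0.60, against 0.33 and 0.32 for HHT1 and HHF1. Around HHT2-HHF2 they had 0.03 to 0.30, against 0.56 and 0.29 for HHT2 and HHF2. The neighbours of HTZ1 had -0.42 to 0.10 and those of HHO1 -0.19 to 0.19.

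**Figure D5:**
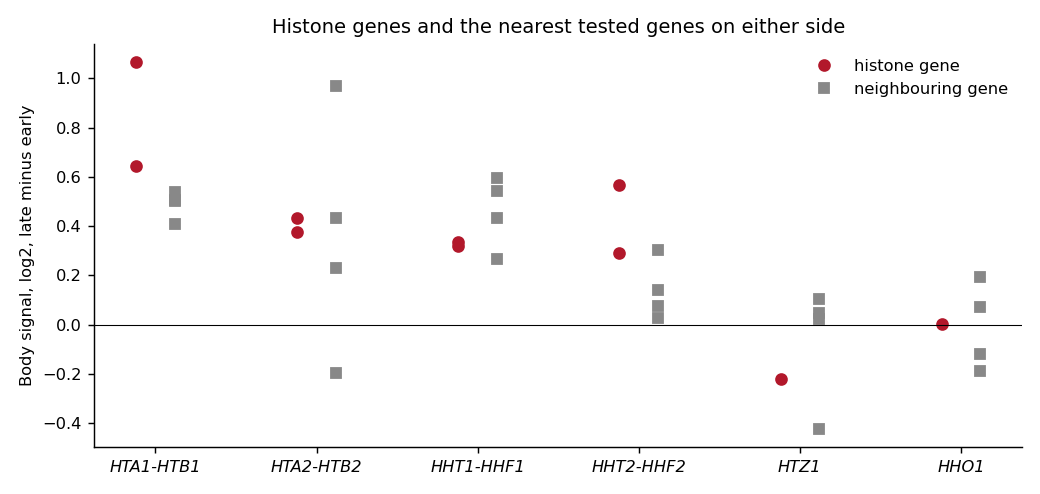
Log2 change in body signal, late minus early, of the histone genes (red circles) and of the 2 nearest tested genes on each side (grey squares) at each locus. The neighbours lie between 0.41 and 0.54 at HTA1-HTB1, below both histone genes, and between 0.27 and 0.60 at HHT1-HHF1, around both.

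The annotation columns place the core genes among the most occupied by RNA polymerase II, at percentiles 96.8 (HHT2) to 99.2 (HTA2) of 5448 genes, with HTZ1 at 78.2 and HHO1 at 42.5. The 141 other genes tested with at least the occupancy of HHT2 had a median body change of -0.20 and a median upstream change of -0.05. The loci differ in the listed fitted replication time: HTA2 and HTB2 were at percentiles 2.39 and 5.28 of all genes, HTB1 and HTA1 at 13.0 and 15.3, HHF2 and HHT2 at 23.9 and 27.6, and HHT1 and HHF1 at 76.4 and 85.9. Whether the body changes relate to replication time was not tested.

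Reads from near-identical copies may not be assignable to either, and how they were assigned is not known here. Between coding sequences of R64 the identity was 97.4% for HHF1 and HHF2, with a longest identical run of 80 bases, 93.7% for HTA1 and HTA2 (65 bases), 93.2% for HHT1 and HHT2 (74 bases) and 87.9% for HTB1 and HTB2 (35 bases). HHF1 and HHT2 have 3 bins each without a value in the files.

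Genes that act on histone supply were read from lists. Of 12 regulators of histone genes (HIR1, HIR2, HIR3 and HPC2 of the HIR complex, SPT10, SPT21, ASF1, RTT106, YTA7, SWI4, SWI6 and MBP1), 10 were tested and none passed for the body, upstream or ratio measure in either direction (1, 2 and 1 at an unadjusted p under 0.05). Their median body change was -0.01. Of 8 genes of histone chaperones (RLF2, CAC2 and MSI1 of CAF-1, VPS75, NAP1, SPT16, POB3 and SPT6), all 8 were tested and none passed for any of the 3 measures (0, 0 and 1 at an unadjusted p under 0.05), with a median body change of -0.01. CSE4, the gene of centromeric H3, had -0.13 (adjusted p = 0.759). The genes whose body signal followed that of the core genes most closely over the 12 nascent libraries were SPO1 (YNL012W, Pearson r = 0.985), SEC28 (YIL076W, 0.973) and PEX31 (YGR004W, 0.962) of 5650 compared. Of the core genes, HTB2 followed their mean most closely (0.945) and HHF2 least (0.435), with HTZ1 at -0.24 and HHO1 at -0.52, all over libraries that share time points and depth. The HTB2 window begins in its promoter. The mean contains each core gene itself but neither HTZ1 nor HHO1, which raises the values of the core genes.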

How the data were processed

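Nascent and bulk chromatin was digested with MNase and sequenced, and per the labels reads passed through CASAVA 1.7.0. The aligner and genome build are not given in the sources used here. The deposited tables hold, per gene, library and genomic strand, a signal in 20 bp bins around the transcription start, which the values show to be relative to the library mean (other unit: 1 is the mean). In every library the values are whole multiples of the smallest step, within 0.01. A step was taken as 1 read, which was not checked, and the depths given in reads rest on this. Files' coordinates were not set against R64, because the listed starts on chromosome 11 lie -370.5 to 460.5 bp (10th to 90th percentile) from R64 coding starts. Gene symbols came from RefSeq for 5699 genes. A further 6 row names (37956 rows) belong to no sample and were not used.

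Medians and ranks over genes use the genes tested, since a chromosome is listed at 0 in replicate 2. Both strands were averaged, and body, NDR and upstream means were taken per gene. Genes with a body signal above 0 in all 8 compared libraries were tested with limma 3.58.1 (R 4.3.3) on log2(value + 0.1), late against early, with Benjamini-Hochberg adjustment over all genes tested. The fold changes so obtained understate those of low genes. Same-numbered libraries are time points of 1 labelled time course, so the fit with the replicate number as a block is given where it changes a call. Correlations of deviations between same-numbered libraries were -0.0618 to 0.0672, and between differently numbered ones -0.0665 to 0.0664. A correlation does not see a shift of a whole library. The median body signal was 1.02 to 1.06 in replicate 1 and 1.17 to 1.21 at 2 to 15 min of replicate 2, a shift that the unblocked test leaves in. The study's methods call the replicates biological, and libraries of a replicate are time points of it, so the 4 libraries of a group are not 4 cultures. The test was checked on simulated data with 200 changed genes. A log2 change of 1 was recovered for 89.5% of them in the body measure, 68.5% upstream and 27% in the ratio. The simulated libraries were independent, so this does not check the test on libraries that share a time course. Python 3.11.15, numpy 2.4.6, pandas 2.3.3 and Biopython 1.88 were used. Alternatives were another pseudocount, no filter, quantile normalization, other windows and time points, and each library or replicate left out. The histone genes and the lists were chosen with earlier results of these data known. Genes are named as the 10 members, list genes past the threshold, neighbours by position (chosen after values were seen), and the 3 genes most alike.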

Additional observations from a re-analysis of the deposited data

Results flagged for a closer look

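In 60 sets of 4 late or 4 early libraries, a histone gene's highest or lowest library was compared with the others, and 4 sets had a library far from the rest; chance alone gives about 1 in 20. The NDR to body ratio of HTA1 was 4.64 in the 4 min library of replicate 1, against 0.418 to 0.744 in the other early libraries; this library had 4.94 reads per bin. The ratio of HTA2 was 0.358 in the 2 min library of replicate 2, against 0.639 to 0.695 in the other early libraries. The ratio of HTZ1 was 0.414 in the 8 min library of replicate 1, against 0.187 to 0.206 in the other late libraries. The upstream signal of HTB2 was 0.870 in the 15 min library of replicate 2, against 0.554 to 0.595 in the other late libraries.

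The 25 min library, which entered no main comparison, had a mean upstream signal of 1.32 over the 8 core histone genes, against 0.603 in bulk, while its median over the genes tested was 1.19, against 0.945 in bulk. HTZ1 and HHO1 averaged 0.719 there, against 0.872 in bulk. Its high promoter signal over all genes moves with this value, and its part in it was not tested.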

How the results depend on the processing

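HTA1 kept its direction in body signal under all 20 alternatives and passed under 11, and HTB1 passed under 5. With any library or replicate left out, 2 to 104 genes were higher and 0 to 14 lower late in body signal, 0 to 12 and 0 to 1 upstream, and 0 to 4 and 0 to 1 in the NDR to body ratio. Genes higher and lower late in body signal numbered 204 and 48 with the replicate block, which changed no call of a histone gene besides HTB1 and HHT2, 173 and 41 with a pseudocount of 1, 155 and 74 after quantile normalization, 165 and 38 for 2 against 15 min, 45 and 0 over 0 to 400 bp, and 0 and 0 with no filter, where HTA1 had an adjusted p of 0.133. For 0 to 4 against 8 to 25 min 60 genes were higher and 2 lower. Alternatives chosen after seeing the data gave 20 and 3 over the F strand, 18 and 4 over the R strand and 20 and 3 over 400 to 1000 bp. Upstream, 47 and 9 genes passed after quantile normalization. For 0 to 4 against 8 to 25 min 1 gene was higher upstream, so HHT2 and HHF2 did not both keep their calls there. HHT2 and HHF2 each passed upstream under 9 of 15 alternatives and lost the call with replicate 1 left out (adjusted p = 0.144) or replicate 2 (0.565). For the ratio, 9 and 3 genes passed after quantile normalization, HTB1 among them (adjusted p = 0.0215), 1 and 1 with the NDR from -300 bp, 1 higher with a pseudocount of 1 or for 0 to 4 against 8 to 25 min, and 0 for 2 against 15 min.

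Signs that turned in the ratio were HHF1 (0.60 for 0 to 4 against 8 to 25 min, 0.057 for 2 against 15 min, and -1.27 to 0.83 with libraries left out), HHO1 (0.14 and, with the NDR from -300 bp, 0.035, and -0.56 to 0.12), HHT1 (-0.16 over 400 to 1000 bp, and -0.15 to 0.49), HTA1 (0.54 for 2 against 15 min, and -0.82 to 0.39), HTA2 (0.85, 0.49, 0.054 and 0.0094 for 0 to 4 against 8 to 25 min, 2 against 15 min, 400 to 1000 bp and a pseudocount of 1, and -0.22 to 0.32), HTB2 (-1.43 over 0 to 400 bp, and -0.12 to 0.19) and HTZ1 (-0.25 for 2 against 15 min, and -0.071 to 0.39). In body signal they were HHF2 (-0.033 on the R strand), HHF1 (-0.21 to 0.85 with libraries left out) and HHO1 (-0.16, -0.092, -0.20 and -0.034 for 0 to 4 against 8 to 25 min, the R strand, 400 to 1000 bp and quantile normalization, and -0.12 to 0.12), and upstream HHO1 (-0.085 for 2 against 15 min, and -0.17 to 0.35). Against bulk, 1 histone gene was lower by over 1 in body signal over 0 to 400 bp or with a replicate left out (0 to 1), and in the ratio HTB1 no longer was with a pseudocount of 1, all 12 nascent libraries or the NDR from -300 bp (0 genes, and 0 to 1 with a replicate left out). The causes were not tested. Depth limits the 0 and 4 min libraries of replicate 1 most, and the bulk comparison rests on 1 library.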
